A study of Homo sapiens with 9 samples.

Results

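The proteasome genes were taken as the protein-coding genes whose symbol is PSMA, PSMB, PSMC, PSMD, PSME, PSMF or PSMG followed by a number, and they were described across the KDM2A shRNA and control shRNA libraries of 2 esophageal squamous carcinoma cell lines. There were 48 such genes among 66338 genes listed in either count table. The Kyse150 table held 47 of them, because the identifier of PSMB3 was listed only in the TE11 table. By role they comprised 8 alpha-ring subunits, 4 structural and 3 catalytic beta-ring subunits of the 20S core, 5 immunoproteasome genes, 1 thymoproteasome gene, 6 ATPases and 11 further subunits of the 19S cap, 3 other activators or inhibitors, and 7 assembly factors.

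The study sequenced polyA RNA from Kyse150 and TE11 cells, lines of squamous tumours of the esophagus, that carried a lentiviral shRNA specific to KDM2A (shKDM2A) or were the shNC controls. The 9 libraries were 2 of Kyse150 shKDM2A, 2 of Kyse150 shNC, 2 labelled TE11 shKDM2A and 3 of TE11 shNC. KDM2A is a demethylase of lysine residues in histone H3. How many KDM2A shRNAs there were, and whether a group is a clone or a pool, has no mention in the labels. Library preparation was replicated independently, with 2 or 3 libraries a group used here, but no label ties them to separate cultures, and p-values therefore cover only the spread among these libraries, which may be technical.

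The proteasome degrades proteins that carry ubiquitin chains. Its 20S core is a barrel of stacked rings, in which the outer alpha rings gate the entry and the inner beta rings hold the proteolytic sites of PSMB5, PSMB6 and PSMB7. The 19S cap binds ubiquitin chains, removes them, and unfolds the substrate with its ATPase ring. In cells exposed to interferon, PSMB8, PSMB9 and PSMB10 are built into new cores in place of PSMB5, PSMB6 and PSMB7, and PSME1 and PSME2 form an alternative cap. This immunoproteasome changes which peptides are produced for display on MHC class I. The constitutive subunits are known to be transcribed together under NFE2L1, a transcription factor that accumulates when the proteasome is impaired.

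The promoter windows of 6 genes are printed because they cover the immunoproteasome genes with a motif match, the neighbour that shares the upstream region of PSMB9, and the 19S gene with the largest fall in Kyse150. Sequences are from RefSeq on GRCh38.p14 and run 5′ to 3′ on the gene's strand, from 250 bases before to 50 bases after the annotated start. PSMB9 (chr6:32853942-32854241, plus strand) encodes the inducible partner of PSMB6. TAP1 (chr6:32853655-32853954, minus strand), a peptide transporter subunit and not a proteasome gene, starts on the other side of the same upstream region. PSMB10 lies at chr16:67936801-67937100 (minus), PSME1 at chr14:24135944-24136243 (plus), PSME2 at chr14:24146561-24146860 (minus) and PSMD12 at chr17:67366528-67366827 (minus). Capitals mark matches, on either strand, to the interferon-stimulated response element (GAAA, NN, GAAA in a row), the kappa B site (GGGA, N, TTTCC in a row) or the core of the antioxidant response element (TGACNNNGC).
PSMB9: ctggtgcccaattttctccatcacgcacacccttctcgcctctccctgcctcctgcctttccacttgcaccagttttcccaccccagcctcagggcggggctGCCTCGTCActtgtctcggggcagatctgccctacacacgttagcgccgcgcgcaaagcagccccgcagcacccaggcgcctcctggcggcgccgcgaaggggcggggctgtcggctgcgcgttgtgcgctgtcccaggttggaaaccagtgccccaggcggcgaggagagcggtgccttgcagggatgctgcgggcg
TAP1: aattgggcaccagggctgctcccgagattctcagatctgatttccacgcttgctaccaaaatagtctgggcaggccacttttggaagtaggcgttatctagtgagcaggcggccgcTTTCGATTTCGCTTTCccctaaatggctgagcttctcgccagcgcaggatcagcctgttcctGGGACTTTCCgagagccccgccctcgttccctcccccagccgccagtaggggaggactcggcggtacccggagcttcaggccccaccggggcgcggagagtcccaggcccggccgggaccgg
PSMB10: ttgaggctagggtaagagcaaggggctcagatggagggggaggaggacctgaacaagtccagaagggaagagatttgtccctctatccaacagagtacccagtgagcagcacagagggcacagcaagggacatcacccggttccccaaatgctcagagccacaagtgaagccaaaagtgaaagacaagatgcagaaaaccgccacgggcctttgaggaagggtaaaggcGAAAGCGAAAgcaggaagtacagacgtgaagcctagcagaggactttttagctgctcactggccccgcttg
PSME1: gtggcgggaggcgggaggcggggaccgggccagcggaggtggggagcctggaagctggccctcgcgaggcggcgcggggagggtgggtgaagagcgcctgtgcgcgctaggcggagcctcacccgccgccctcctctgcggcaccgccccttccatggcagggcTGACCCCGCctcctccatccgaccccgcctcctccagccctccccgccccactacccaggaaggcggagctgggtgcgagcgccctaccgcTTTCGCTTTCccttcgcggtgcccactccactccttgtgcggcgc
PSME2: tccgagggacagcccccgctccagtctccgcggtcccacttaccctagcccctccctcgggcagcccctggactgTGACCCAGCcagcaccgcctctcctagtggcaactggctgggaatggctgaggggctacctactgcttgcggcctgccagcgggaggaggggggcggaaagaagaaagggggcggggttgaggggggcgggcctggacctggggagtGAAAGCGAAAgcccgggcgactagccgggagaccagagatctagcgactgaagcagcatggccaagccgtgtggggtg
PSMD12: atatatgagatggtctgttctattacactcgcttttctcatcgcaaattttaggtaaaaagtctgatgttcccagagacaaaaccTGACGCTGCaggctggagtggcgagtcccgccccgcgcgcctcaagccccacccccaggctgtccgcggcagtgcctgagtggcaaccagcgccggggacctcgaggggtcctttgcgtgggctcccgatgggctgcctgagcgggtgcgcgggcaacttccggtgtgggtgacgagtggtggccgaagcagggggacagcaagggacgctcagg

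The interferon-stimulated response element letters were found in 6 of the 42 proteasome genes that had a promoter entry (14.3%), against 3.57% of 35116 promoters of the same length. They stood in 3 of the 5 immunoproteasome genes, beginning at position -21 in PSMB10, 5 in PSME1 and -28 in PSME2, where 0 is the annotated start. The other 3 were PSMA4, PSMB4 and PSMG4. In TAP1 overlapping matches began at -134 and -128, and a kappa B match at -72. The antioxidant response element core was found in 13 of the 42 (31.0%), against 13.3% of all promoters, and in PSMB9, PSME1 and PSME2 among the immunoproteasome genes. The gamma-activated site (TTCNNNGAA) was found in 5 of the 42 and in 7.66% of all promoters. The kappa B letters were found in none of the 42 and in 0.558% of all promoters. The PSMB8 window held no match to any of the 4 motifs, which says only that these letters are not in that window. All motifs were read on both strands, and a match does not show that a factor binds.

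KDM2A was read before the proteasome genes because it checks the labels. Its level was 107.2 and 104.5 CPM in the Kyse150 shKDM2A libraries and 172.0 and 174.7 CPM in the Kyse150 shNC libraries (log2 fold change -0.71, SE 0.07, edgeR adjusted p = 3.87e-09). CPM here are gene counts divided by the TMM-scaled library size of the line and given per 1000000. In TE11 it was 126.2 and 139.5 CPM in the libraries labelled shKDM2A and 120.0, 116.4 and 120.0 CPM in the shNC libraries (log2 fold change 0.16, SE 0.07, edgeR adjusted p = 0.0335). That call was lost in 7 of its alternatives, among them without TE11 shNC replicate 2 (edgeR adjusted p = 0.0772), without TE11 shNC replicate 3 (0.0969) and without labelled shKDM2A replicate 2 (0.398). The target gene was thus no lower under the TE11 knockdown label, and every direction given for TE11 is between the libraries as labelled. Across 12086 coding genes, these libraries correlated at 0.923 to 0.928 with the Kyse150 shNC libraries and at 0.781 to 0.783 with the TE11 shNC libraries (Pearson r over genes, no independent replicates). Their correlation with the Kyse150 shKDM2A libraries was 0.878 to 0.887. Kyse150 shNC and TE11 shNC libraries correlated at 0.718 to 0.732, and Kyse150 shKDM2A and Kyse150 shNC libraries at 0.968 to 0.972. Leaving the labelled TE11 knockdown libraries out would leave no TE11 comparison.

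Gene counts per library summed to 6052883 to 7167055 in Kyse150 and 8457767 to 12073098 in TE11. The 10 markers of squamous epithelium, none at 0 throughout a group, summed to 1954.3 to 1967.4 CPM in Kyse150 shKDM2A, 2168.9 to 2170.7 in Kyse150 shNC, 1791.1 to 1828.7 in labelled TE11 shKDM2A and 3605.0 to 3918.5 in TE11 shNC. The 12 leukocyte markers, 5 to 7 of them at 0 in a group, summed to 5.18 to 5.22, 2.77 to 3.12, 2.1 to 3.34 and 3.32 to 4.16 CPM in the same order. PTPRC and MS4A1 were at 0 in every library. The 8 fibroblast markers summed to 11.0 to 11.8, 6.37 to 6.7, 2.79 to 3.89 and 18.6 to 22.0 CPM, and the endothelial ones to at most 2.77 CPM except in TE11 shNC, with 6.98 to 9.27. In each line the fibroblast sum was higher in the group with the higher immunoproteasome sum. The leukocyte sum was so in Kyse150, while its TE11 groups overlapped. The part of these markers in the results was not tested. In bulk RNA, fewer cells of a type and less RNA per cell cannot be told apart.

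In Kyse150, 3 proteasome genes were higher and 29 lower in the shKDM2A libraries, of 45 tested (edgeR quasi-likelihood test, Benjamini-Hochberg adjusted p under 0.05 over all genes). Of all 14060 genes tested in that line, 24.8% were called higher and 23.3% lower. The 3 that rose were PSMB8, PSMB9 and PSME1, all on the immunoproteasome list. All 29 that fell were constitutive genes, of 40 tested, and no constitutive gene rose. The median log2 fold change of the 45 was -0.31, against 0.00 over all genes tested. In TE11 the pattern ran the other way: 29 genes were higher and 10 lower in the libraries labelled shKDM2A, of 46 tested, where 35.9% of all 16453 genes were called higher and 42.2% lower. All 5 immunoproteasome genes were among the 10 that fell, and the 29 that rose were constitutive genes. The median was 0.32, against -0.09 over all genes.

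**Figure D1:**
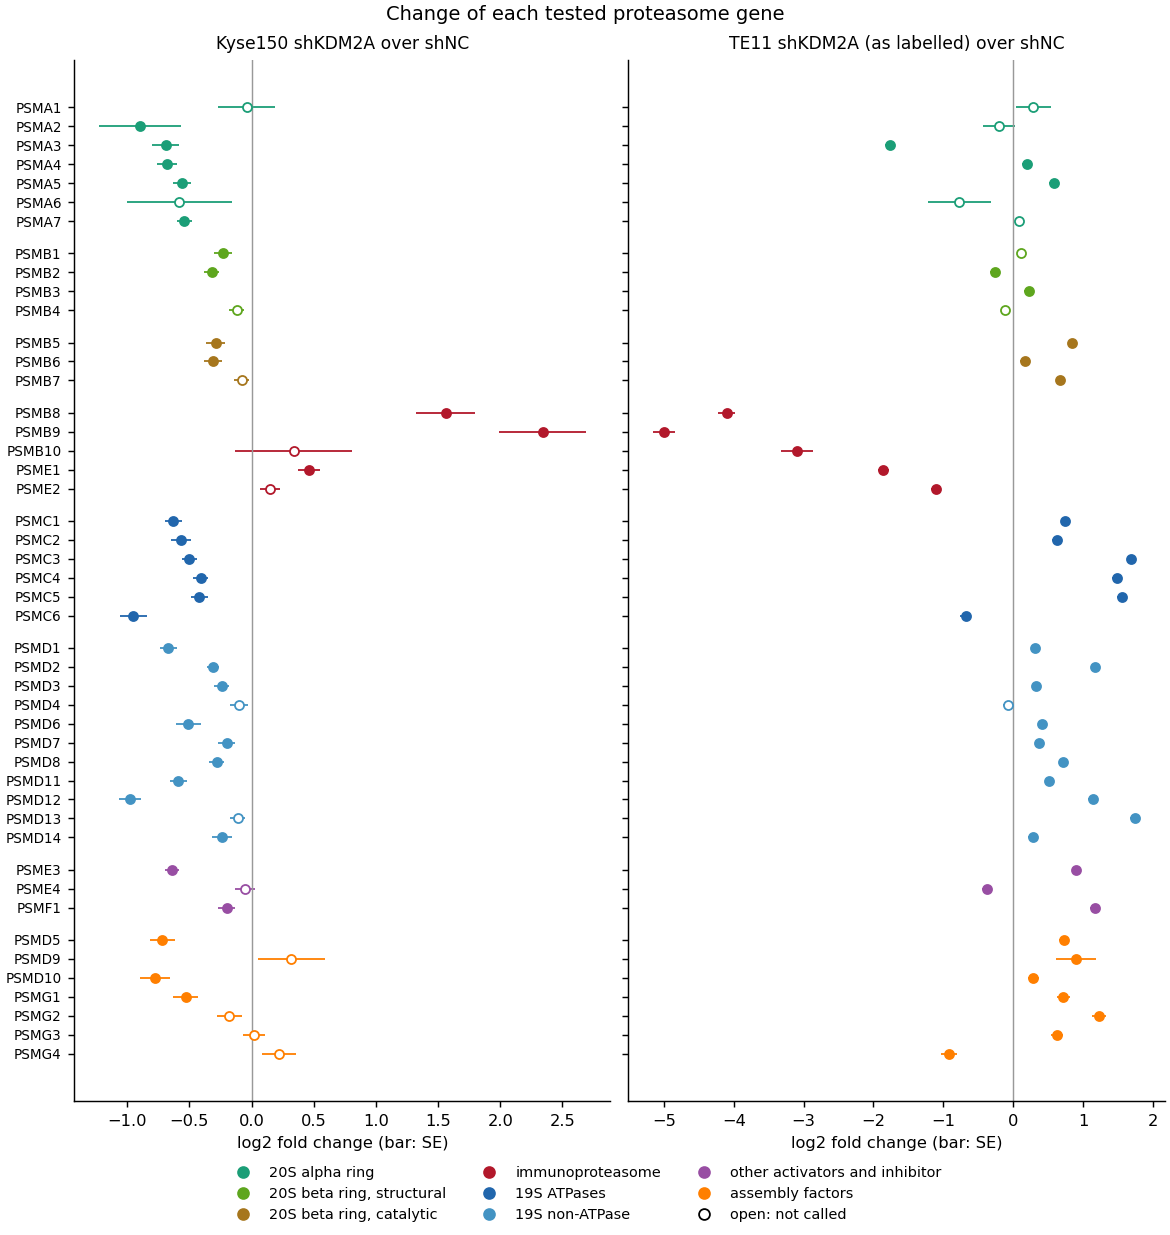
Log2 fold change of each tested proteasome gene (points, filled where called by edgeR at adjusted p under 0.05; bars, SE) in Kyse150 (left, shKDM2A over shNC) and TE11 (right, libraries labelled shKDM2A over shNC), coloured by role. The immunoproteasome genes PSMB8 and PSMB9 stand furthest to the right in Kyse150, at 1.56 and 2.34, and furthest to the left in TE11, at -4.10 and -5.00.

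PSMB8, the inducible subunit with chymotrypsin-like activity that replaces PSMB5, lies at chr6:32840717-32844703 on the minus strand (GRCh38, GENCODE release 29, as for all gene coordinates). It had 13.9 and 12.5 CPM in Kyse150 shKDM2A and 3.54 and 5.39 CPM in Kyse150 shNC. The groups did not overlap, and the level was 2.95-fold higher in the knockdowns (log2 1.56, SE 0.24, edgeR adjusted p = 5.25e-06). Its TE11 levels were 6.29 and 5.45 CPM in the libraries labelled shKDM2A and 106.1, 94.2 and 100.9 CPM in shNC. All libraries labelled knockdown were far below every control there (log2 -4.10, SE 0.12, edgeR adjusted p = 4.56e-31).

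PSMB9, the inducible partner of PSMB6, lies beside it at chr6:32844136-32859585 on the plus strand. It had 7.45 and 7.93 CPM in Kyse150 shKDM2A and 2.12 and 0.874 CPM in Kyse150 shNC, where the counts were only 15 and 6. The knockdown libraries were higher without overlap (log2 2.34, SE 0.35, edgeR adjusted p = 3.67e-06), and the log2 value was 3.10 without shNC replicate 1 and 1.84 without shNC replicate 2, the ends of its range over the alternatives. In TE11 it had 2.1 and 1.89 CPM in the libraries labelled shKDM2A and 66.0, 65.9 and 60.2 CPM in shNC. This was the largest fall of any tested proteasome gene in either line (log2 -5.00, SE 0.16, edgeR adjusted p = 6.94e-30).

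PSMB10, the inducible partner of PSMB7, lies at chr16:67934502-67937087 on the minus strand. It had 2.38 and 1.78 CPM in Kyse150 shKDM2A and 2.41 and 0.874 CPM in Kyse150 shNC, on 6 to 17 counts a library. The groups overlapped and the gene was not called (log2 0.34, SE 0.47, edgeR adjusted p = 0.583). The log2 value was -0.21 without shNC replicate 2 and 1.24 without shNC replicate 1, and neither was called. Levels in TE11 were 1.86 and 1.45 CPM in the libraries labelled shKDM2A and 14.6, 13.4 and 14.8 CPM in shNC, a fall without overlap (log2 -3.10, SE 0.23, edgeR adjusted p = 2.33e-16).

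PSME1 and PSME2, which encode the alpha and beta subunits of the interferon-inducible 11S activator, are neighbours on chromosome 14 (chr14:24136158-24138967, plus, and chr14:24143362-24147570, minus). PSME1 had 101.0 and 92.8 CPM in Kyse150 shKDM2A and 67.4 and 73.4 CPM in Kyse150 shNC, without overlap (log2 0.46, SE 0.09, edgeR adjusted p = 6.56e-05). Its TE11 levels were 52.5 and 62.2 CPM in the libraries labelled shKDM2A and 222.3, 201.5 and 201.3 CPM in shNC (log2 -1.86, SE 0.08, edgeR adjusted p = 5.25e-25). PSME2 showed the same order of groups with smaller distances. It had 94.2 and 89.8 CPM in Kyse150 shKDM2A and 84.1 and 81.2 CPM in Kyse150 shNC, and was not called there (log2 0.15, SE 0.08, edgeR adjusted p = 0.12). In TE11 it had 71.6 and 72.7 CPM in the libraries labelled shKDM2A and 156.3, 150.5 and 156.4 CPM in shNC (log2 -1.10, SE 0.07, edgeR adjusted p = 5.53e-18).

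**Figure D2:**
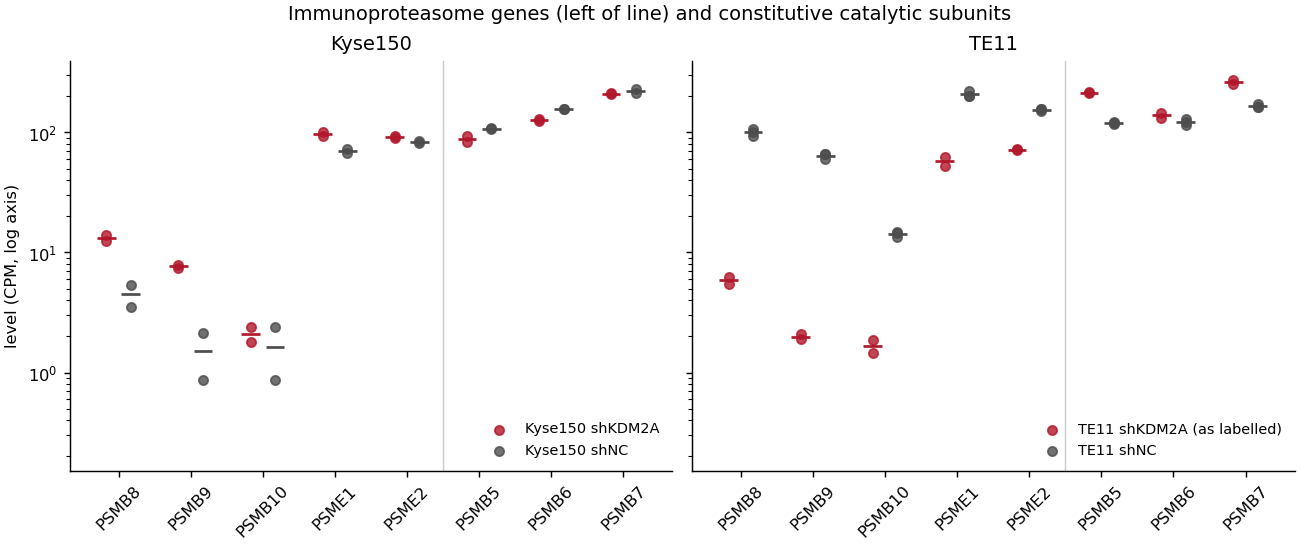
Level of the 5 immunoproteasome genes and the 3 constitutive catalytic subunits in each library (CPM, log axis; points, libraries; lines, group means), with shKDM2A in red and shNC in grey, Kyse150 left and TE11 right. In TE11 the libraries labelled shKDM2A lie below every shNC library for all 5 immunoproteasome genes, and above them for PSMB5, PSMB6 and PSMB7.

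PSMB5 and PSMB6 were called in the direction opposite to their inducible partners in both lines, and PSMB7 in TE11. PSMB5, with chymotrypsin-like activity, had 83.6 and 92.7 CPM in Kyse150 shKDM2A and 106.5 and 108.1 CPM in Kyse150 shNC (log2 -0.29, SE 0.08, edgeR adjusted p = 0.00439), a call that was lost without shKDM2A replicate 1 (adjusted p = 0.0893). Levels in TE11 were 216.6 and 213.0 CPM in the libraries labelled shKDM2A and 119.2, 118.2 and 121.7 CPM in shNC (log2 0.84, SE 0.06, edgeR adjusted p = 7.25e-16). PSMB5 thus fell in one line and rose in the other, without overlap in either.

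PSMB6, with caspase-like activity, had 129.4 and 123.9 CPM in Kyse150 shKDM2A and 156.5 and 158.2 CPM in Kyse150 shNC (log2 -0.31, SE 0.07, edgeR adjusted p = 0.000562). Its TE11 values were close, at 132.1 and 144.9 CPM in the libraries labelled shKDM2A and 129.3, 116.3 and 122.8 CPM in shNC (log2 0.17, SE 0.07, edgeR adjusted p = 0.0238). That TE11 call was lost in 6 alternatives, with adjusted p up to 0.311 without labelled shKDM2A replicate 2, 0.103 without shNC replicate 2 and 0.0888 without shNC replicate 3. PSMB7, with trypsin-like activity, was not called in Kyse150, at 211.6 and 207.8 CPM in shKDM2A and 214.2 and 228.9 CPM in shNC (log2 -0.08, SE 0.06, edgeR adjusted p = 0.315). In TE11 it rose, with 275.2 and 251.9 CPM in the libraries labelled shKDM2A and 173.7, 162.4 and 161.8 CPM in shNC (log2 0.67, SE 0.06, edgeR adjusted p = 8.62e-13).

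The balance between each inducible subunit and the subunit it replaces was read as a ratio of counts within a library, which needs no scaling between libraries. For PSMB8 over PSMB5 the ratio was 16.7% and 13.5% in Kyse150 shKDM2A and 3.39% and 5.05% in Kyse150 shNC. In TE11 it was 2.93% and 2.59% in the libraries labelled shKDM2A and 89.0%, 79.7% and 83.0% in shNC. On the log2 scale, with 0.5 added to each count, the shKDM2A mean minus the shNC mean was 1.86 in Kyse150 and -4.93 in TE11. For PSMB9 over PSMB6 the ratio was 5.81% and 6.46% in Kyse150 shKDM2A and 1.40% and 0.598% in Kyse150 shNC, and 1.63% and 1.34% in labelled TE11 shKDM2A against 51.0%, 56.7% and 49.1% in TE11 shNC. The log2 differences were 2.74 in Kyse150, or 3.36 without its shNC replicate 1, and -5.14 in TE11.

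For PSMB10 over PSMB7 the ratio was 1.16% and 0.895% in Kyse150 shKDM2A and 1.16% and 0.414% in Kyse150 shNC. The groups overlapped, and the log2 difference of 0.56 turned to -0.18 without shNC replicate 2 and was 1.30 without shNC replicate 1. In TE11 it was 0.698% and 0.596% in the libraries labelled shKDM2A and 8.44%, 8.25% and 9.17% in shNC, a log2 difference of -3.74. With 2 against 2 libraries an exact two-sided permutation test cannot go below 0.33, and with 2 against 3 not below 0.1. Each ratio whose groups were apart had that smallest p in an exact test (0.33 in Kyse150, 0.1 in TE11), and PSMB10 over PSMB7 in Kyse150 had an exact p of 0.667, so none of the 6 could pass 0.05, adjusted or not.

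**Figure D3:**
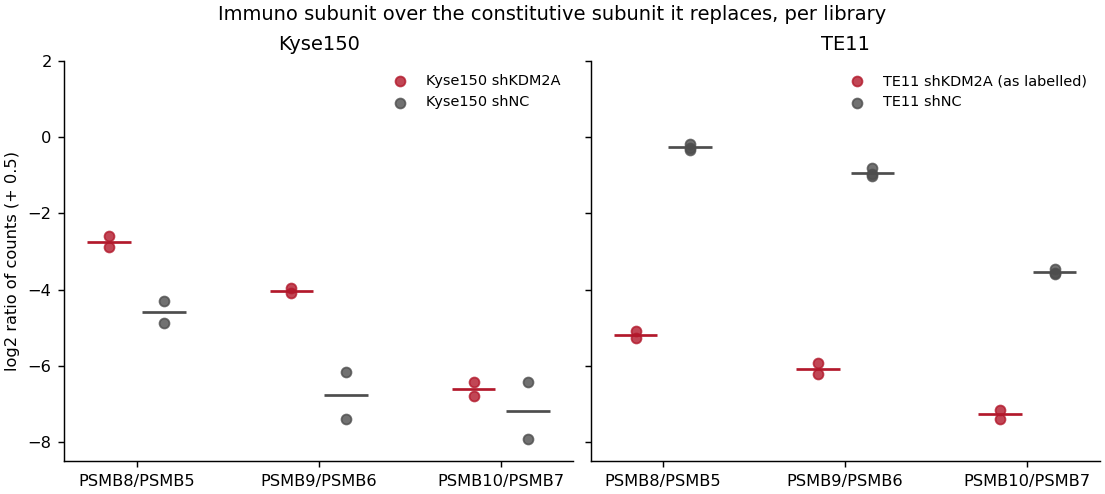
Log2 ratio of the counts of each inducible catalytic subunit to the constitutive subunit it replaces, in each library (points; lines, group means; 0.5 added to each count), with shKDM2A in red and shNC in grey. PSMB8 over PSMB5 averages -2.74 in Kyse150 shKDM2A against -4.60 in shNC, and -5.18 in the libraries labelled TE11 shKDM2A against -0.25 in TE11 shNC.

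The alpha ring, which gates the core, fell in part in Kyse150: 5 of 7 tested genes were lower and none higher in shKDM2A. In TE11 2 of the 7 rose and 1 fell. For all genes the shares were 23.3% lower and 24.8% higher in Kyse150, and 35.9% higher and 42.2% lower in TE11. PSMA3 fell in both lines. It had 38.5 and 40.8 CPM in Kyse150 shKDM2A and 69.1 and 58.3 CPM in Kyse150 shNC (log2 -0.69, SE 0.11, edgeR adjusted p = 6.02e-06). Its TE11 levels were 72.2 and 68.9 CPM in the libraries labelled shKDM2A and 232.7, 244.5 and 238.0 CPM in shNC (log2 -1.76, SE 0.07, edgeR adjusted p = 1.07e-25). No other constitutive gene fell as far in TE11.

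PSMA5 followed the commoner order, with 100.6 and 100.1 CPM in Kyse150 shKDM2A and 148.5 and 147.9 CPM in Kyse150 shNC (log2 -0.56, edgeR adjusted p = 3.55e-07), and 149.9 and 159.3 CPM in labelled TE11 shKDM2A against 105.1, 99.5 and 103.9 CPM in TE11 shNC (log2 0.59, edgeR adjusted p = 2.15e-10). PSMA2 had the lowest log2 fold change of the ring in Kyse150 (-0.90, SE 0.33, edgeR adjusted p = 0.0244), on 16 and 18 counts in shKDM2A and 32 and 37 in shNC. Its call was lost with DESeq2 (adjusted p = 0.191), without shKDM2A replicate 1 (0.153) and without shNC replicate 2 (0.136). PSMA4 and PSMA7 also fell in Kyse150, and PSMA4 rose in TE11 at 0.20, a call lost without labelled shKDM2A replicate 1 (edgeR adjusted p = 0.0867), without shNC replicate 3 (0.0706) and with the replicate block (0.0552). PSMA1 and PSMA6 were called in neither line. PSMA1 did pass as higher in TE11 with the replicate block (log2 0.61, edgeR adjusted p = 0.0458) and without shNC replicate 3 (0.60, 0.0444). PSMA8, the testis form of an alpha subunit, had no count in any library.

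Of the structural beta subunits, PSMB2 fell in both lines. It had 180.8 and 184.9 CPM in Kyse150 shKDM2A and 221.6 and 233.7 CPM in Kyse150 shNC (log2 -0.32, SE 0.06, edgeR adjusted p = 0.000173), and 184.8 and 191.9 CPM in labelled TE11 shKDM2A against 240.8, 211.8 and 226.1 CPM in TE11 shNC (log2 -0.26, SE 0.07, edgeR adjusted p = 0.000386). PSMB1 fell in Kyse150 (log2 -0.23, edgeR adjusted p = 0.00628, and 0.0837 without shKDM2A replicate 1) and was not called in TE11 (log2 0.11, edgeR adjusted p = 0.111). PSMB3, tested only in TE11, was higher there (log2 0.23, edgeR adjusted p = 0.00208, and 0.0661 without labelled shKDM2A replicate 2). PSMB4 was called in neither line, but its TE11 value of -0.12 (edgeR adjusted p = 0.0579) passed in 6 alternatives. PSMB11, the thymus subunit, had no count in any library.

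The 19S cap was lower in Kyse150 shKDM2A and higher in the libraries labelled TE11 shKDM2A for most of its genes. Of its 17 genes, 15 were lower and none higher in Kyse150 shKDM2A, with a median log2 fold change of -0.42. In TE11 15 were higher and 1 lower in the libraries labelled shKDM2A, with a median of 0.63. All genes tested gave 23.3% lower and 24.8% higher in Kyse150, and 35.9% higher and 42.2% lower in TE11. All 6 ATPases, which form the unfolding ring, fell in Kyse150, by log2 values from -0.95 to -0.41, and 5 of them rose in TE11.

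PSMC3 rose furthest of the ATPases in TE11. It had 318.8 and 306.0 CPM in Kyse150 shKDM2A and 429.8 and 452.7 CPM in Kyse150 shNC (log2 -0.50, SE 0.06, edgeR adjusted p = 4.07e-08). In TE11 it had 395.2 and 420.6 CPM in the libraries labelled shKDM2A and 125.5, 123.7 and 129.2 CPM in shNC (log2 1.69, SE 0.06, edgeR adjusted p = 1.08e-27). The Kyse150 knockdowns were thus below all their controls, and the labelled TE11 knockdowns above all theirs. PSMC5 gave 195.2 and 183.1 CPM in Kyse150 shKDM2A against 238.9 and 266.1 CPM in Kyse150 shNC (log2 -0.42, edgeR adjusted p = 8.86e-06), and 244.4 and 250.1 CPM in labelled TE11 shKDM2A against 87.8, 84.3 and 79.8 CPM in TE11 shNC (log2 1.56, edgeR adjusted p = 5.86e-25). FTSJ3 on the opposite strand overlaps 27.2% of the PSMC5 principal transcript, and it held 1132 to 3411 counts a library in TE11. PSMC1 gave log2 values of -0.63 and 0.75 in Kyse150 and TE11 (edgeR adjusted p = 1.16e-08 and 1.68e-14), but 82.1% of its principal transcript is overlapped by NRDE2 on the opposite strand.

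PSMC6 was the exception among the ATPases. It had 29.8 and 30.2 CPM in Kyse150 shKDM2A and 59.5 and 56.4 CPM in Kyse150 shNC (log2 -0.95, SE 0.11, edgeR adjusted p = 4.48e-08). It also fell in TE11, with 88.8 and 80.2 CPM in the libraries labelled shKDM2A and 127.4, 144.6 and 133.9 CPM in shNC (log2 -0.68, SE 0.08, edgeR adjusted p = 5.92e-11). PSMC6, PSMA3 and PSMB2 were the 3 proteasome genes called lower in both lines. They were 6.67% of the 45 tested in both, against 4.69% of all 13276 genes.

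Of the 11 other 19S subunits, 9 fell in Kyse150 and 10 rose in TE11, and none was called the other way. PSMD12, a lid subunit, had 60.5 and 58.2 CPM in Kyse150 shKDM2A and 124.0 and 110.6 CPM in Kyse150 shNC, the largest fall of any proteasome gene in that line (log2 -0.98, SE 0.09, edgeR adjusted p = 3.55e-10). Levels in TE11 were 199.5 and 190.2 CPM in the libraries labelled shKDM2A and 77.9, 95.8 and 90.7 CPM in shNC (log2 1.14, SE 0.07, edgeR adjusted p = 1.24e-18). PSMD13, another lid subunit, barely differed in Kyse150, at 223.5 and 208.8 CPM in shKDM2A and 229.3 and 239.0 CPM in shNC (log2 -0.11, SE 0.06, edgeR adjusted p = 0.137). It had the largest rise of the family in TE11, with 217.4 and 218.2 CPM in the libraries labelled shKDM2A and 68.1, 63.4 and 62.2 CPM in shNC (log2 1.75, SE 0.07, edgeR adjusted p = 2.34e-26).

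PSMD2, a scaffold subunit of the cap's base, had 634.6 and 588.1 CPM in Kyse150 shKDM2A and 755.9 and 764.7 CPM in Kyse150 shNC (log2 -0.31, edgeR adjusted p = 1.74e-05), and 877.3 and 906.9 CPM in labelled TE11 shKDM2A against 415.8, 373.5 and 398.8 CPM in TE11 shNC (log2 1.17, edgeR adjusted p = 4.63e-23). Its fellow scaffold PSMD1 gave -0.67 in Kyse150 and 0.31 in TE11 (edgeR adjusted p = 9.35e-09 and 1.93e-05). PSMD14, the deubiquitinase of the lid, gave -0.24 and 0.28 (edgeR adjusted p = 0.0199 and 0.000146), and its Kyse150 call was lost without shKDM2A replicate 1 (log2 -0.10, adjusted p = 0.463), with DESeq2 (0.0939) and with total count scaling (0.0772). PSMD7 gave -0.20 in Kyse150 (edgeR adjusted p = 0.0158), a call lost in 5 alternatives, among them without shKDM2A replicate 1 (0.148) and without shNC replicate 2 (0.062). PSMD4, an intrinsic ubiquitin receptor, was called in neither line, at -0.10 in Kyse150 and -0.08 in TE11, but was called lower in TE11 with upper-quartile scaling (log2 -0.14, edgeR adjusted p = 0.038).

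The remaining regulators divided. PSME3, the nuclear 11S activator that is not part of the interferon-induced form, had 231.6 and 229.2 CPM in Kyse150 shKDM2A and 358.0 and 359.6 CPM in Kyse150 shNC (log2 -0.64, SE 0.06, edgeR adjusted p = 6.52e-10). Its TE11 levels were 354.0 and 375.4 CPM in the libraries labelled shKDM2A and 194.2, 194.4 and 197.7 CPM in shNC (log2 0.90, SE 0.06, edgeR adjusted p = 5.61e-18). Its calls were opposite to those of its relative PSME1 in both lines and of PSME2 in TE11. PSMF1, an inhibitor of the 20S core in the test tube, gave -0.20 in Kyse150 (edgeR adjusted p = 0.0256) and 1.17 in TE11 (9.04e-19). Its Kyse150 call was lost in 6 alternatives, among them without shKDM2A replicate 2 (0.161) and without shNC replicate 2 (0.258). PSME4, a monomeric activator, was not called in Kyse150 and fell by 0.38 on the log2 scale in TE11 (edgeR adjusted p = 7.81e-06).

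Of the 7 assembly factors, 3 fell and none rose in Kyse150, whereas 6 rose and 1 fell in TE11. Among all genes tested, 23.3% fell and 24.8% rose in Kyse150, and 35.9% rose and 42.2% fell in TE11. PSMD10, a chaperone of the 19S base also known as gankyrin, had 25.9 and 24.4 CPM in Kyse150 shKDM2A and 43.2 and 43.6 CPM in Kyse150 shNC (log2 -0.78, SE 0.12, edgeR adjusted p = 5.04e-06). In TE11 it had 69.0 and 65.4 CPM in the libraries labelled shKDM2A and 52.2, 57.3 and 55.3 CPM in shNC (log2 0.29, SE 0.08, edgeR adjusted p = 0.00145). PSMD5, also a base chaperone, gave -0.72 and 0.73 (edgeR adjusted p = 9.71e-07 and 4.65e-12). PSMD9, a further base chaperone, was not called in Kyse150 (log2 0.32, edgeR adjusted p = 0.341) and rose in TE11 (0.90, 0.00476).

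The alpha-ring chaperones work as pairs. PSMG1 gave -0.53 in Kyse150 and 0.72 in TE11 (edgeR adjusted p = 6.76e-05 and 3.65e-10). Its partner PSMG2 gave -0.18, not called (edgeR adjusted p = 0.167, and 0.0223 without shNC replicate 2), and 1.23 (2.14e-15). Its TE11 levels were 66.5 and 66.2 CPM in the libraries labelled shKDM2A and 28.0, 32.9 and 24.0 CPM in shNC. PSMG3 and PSMG4, the other pair, went apart in TE11: PSMG3 rose (log2 0.63, edgeR adjusted p = 4.84e-08) while PSMG4 fell, with 20.3 and 19.8 CPM in the libraries labelled shKDM2A and 39.0, 35.9 and 39.0 CPM in shNC (log2 -0.92, SE 0.11, edgeR adjusted p = 4.04e-10). Neither was called in Kyse150, PSMG4 passing there only without shNC replicate 2 (edgeR adjusted p = 0.0448).

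Summed over its genes, the 19S cap came to 3085.7 and 2999.6 CPM in Kyse150 shKDM2A and 3889.9 and 4043.0 CPM in Kyse150 shNC. In TE11 it came to 4260.5 and 4319.4 CPM in the libraries labelled shKDM2A and 2546.4, 2506.8 and 2520.2 CPM in shNC. The constitutive 20S core, which differed less in TE11, came to 1496.6 and 1515.8 CPM in Kyse150 shKDM2A and 1873.9 and 1916.8 CPM in Kyse150 shNC. Its TE11 sums were 2357.1 and 2365.2 CPM in the libraries labelled shKDM2A and 2286.8, 2213.9 and 2220.9 CPM in shNC. They cover 15 genes, PSMB3 among them, against 14 without PSMB3 in Kyse150, so the core sums are not comparable between lines. The immunoproteasome genes summed to 218.9 and 204.8 CPM in Kyse150 shKDM2A and 159.6 and 161.7 CPM in Kyse150 shNC, and to 134.3 and 143.6 CPM in labelled TE11 shKDM2A against 565.4, 525.4 and 533.7 CPM in TE11 shNC. In each of these sums the groups of a line did not overlap. The sums are weighted by the most abundant and longest transcripts and were not tested.

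**Figure D4:**
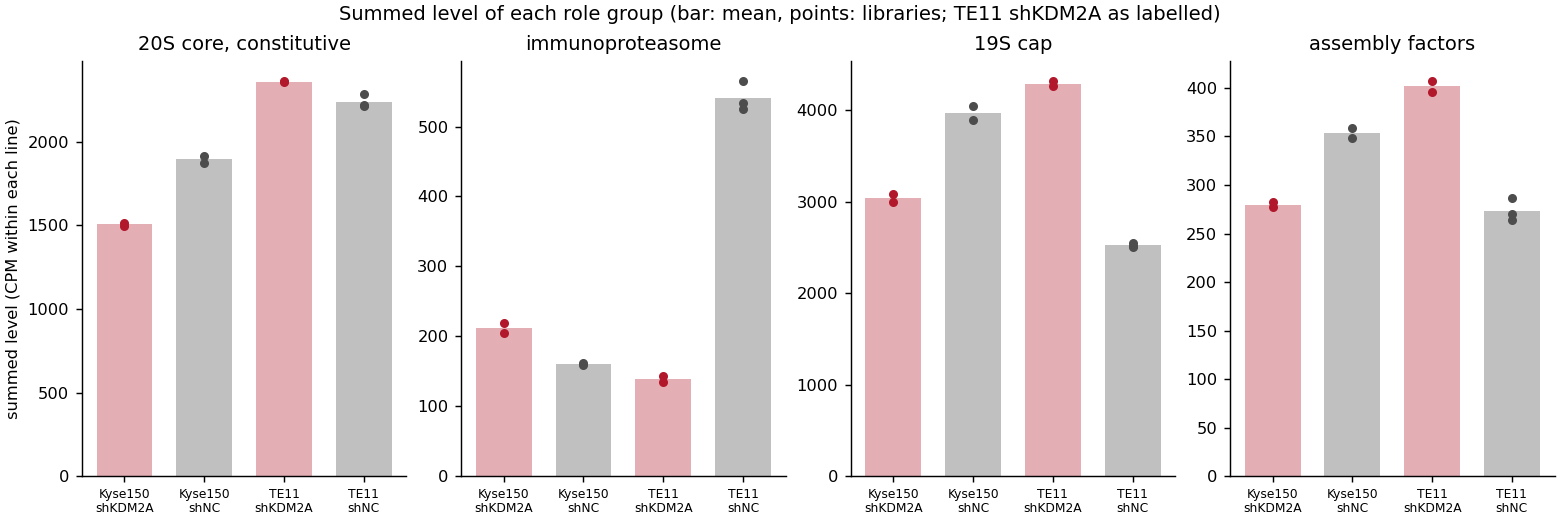
Summed level of 4 role groups (CPM scaled within each line; bars, group means from 0; points, libraries), with shKDM2A in red left of shNC in grey for each line. The core sum includes PSMB3 in TE11 only. The 19S cap averages 3042.6 CPM in Kyse150 shKDM2A against 3966.5 in shNC and 4290.0 in the libraries labelled TE11 shKDM2A against 2524.5 in TE11 shNC, while the immunoproteasome sum runs the other way.

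The change in the TE11 libraries as labelled, minus the change in Kyse150, was tested in a single edgeR fit of the 9 libraries. KDM2A was not lower under the TE11 knockdown label, so this contrast need not be between responses to its knockdown. The part of the labels in it was not tested. The difference was above 0 for 30 proteasome genes and below 0 for 8, of 45 tested, where 33.8% of 15895 genes were called above 0 and 33.1% below. All 5 immunoproteasome genes were among the 8, from -7.31 for PSMB9 (SE 0.36, adjusted p = 1.46e-26) to -1.23 for PSME2 (SE 0.11, adjusted p = 2.53e-15). Without Kyse150 shNC replicate 1 the difference was -8.08 for PSMB9 and -4.31, against -3.42 with all libraries, for PSMB10. The other 3 were PSMA3, PSME4 and PSMG4, the PSME4 call being lost without Kyse150 shNC replicate 2 (adjusted p = 0.0523), without labelled TE11 shKDM2A replicate 1 (0.099) and with the replicate block (0.0587). The largest differences above 0 were those of PSMC3 (2.21, SE 0.09, adjusted p = 6.04e-32) and PSMD12 (2.15, SE 0.12, adjusted p = 2.01e-24). All 6 ATPases were called above 0, but PSMC6, at 0.29, lost the call in 13 alternatives, among them without either Kyse150 shKDM2A replicate (adjusted p = 0.113 and 0.0996) and without TE11 shNC replicate 1 (0.0955).

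Set side by side, 23 proteasome genes were lower in Kyse150 shKDM2A and higher in the libraries labelled TE11 shKDM2A, and 3 were higher in Kyse150 and lower in TE11, of 45 tested in both (51.1% and 6.67%). Of all 13276 genes tested in both lines, 15.2% were lower in Kyse150 and higher in TE11, and 13.7% the reverse. The 23 comprised 5 ATPases, 9 further 19S subunits, 4 constitutive core subunits (PSMA4, PSMA5, PSMB5 and PSMB6), PSME3, PSMF1, and the assembly factors PSMD5, PSMD10 and PSMG1. The 3 were PSMB8, PSMB9 and PSME1. A further 5 rose in TE11 without a call in Kyse150 (PSMB7, PSMD9, PSMD13, PSMG2 and PSMG3), or 11.1%, against 19.6% of all genes. Called in neither line were 4 (PSMA1, PSMA6, PSMB4 and PSMD4), or 8.89%, against 13.8%. No proteasome gene was called higher in both lines, a call that 6.47% of all genes had.

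**Figure D5:**
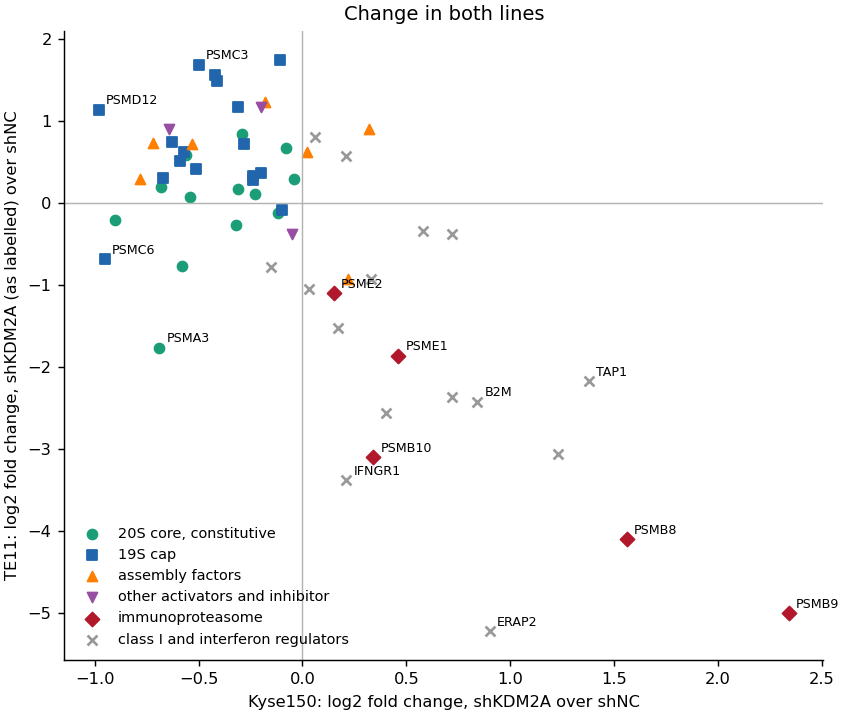
Log2 fold change in TE11 (y axis, libraries labelled shKDM2A over shNC) against that in Kyse150 (x axis, shKDM2A over shNC) for each proteasome gene tested in both, by role, with class I and interferon genes as crosses. Constitutive genes gather at upper left, such as PSMD12 at -0.98 and 1.14, and the immunoproteasome genes at lower right, such as PSMB9 at 2.34 and -5.00.

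On a scale fitted to all 9 libraries together, which rests on tables made with different annotations, the order of the 4 groups differed by role. All 5 immunoproteasome genes were highest in TE11 shNC. PSMB8 averaged 12.8 CPM in Kyse150 shKDM2A, 4.38 in Kyse150 shNC, 6.15 in labelled TE11 shKDM2A and 104.0 in TE11 shNC. The labelled TE11 knockdowns, with 5.70 and 6.6 CPM, lay above the Kyse150 shNC range of 3.47 to 5.29 and far below every TE11 shNC library. For PSMB10 the ranges of the other 3 groups overlapped, between 0.858 and 2.36 CPM, with TE11 shNC at 13.9 to 15.3. Of the 17 genes of the 19S cap, 10 were highest in labelled TE11 shKDM2A, 5 in Kyse150 shNC and 2 in TE11 shNC. In turn, 10 were lowest in Kyse150 shKDM2A and 7 in TE11 shNC. Such orders were not counted over all genes, so they cannot be set against the general pattern of these libraries. The mean of the labelled TE11 knockdowns was nearer to that of the Kyse150 controls than to that of the TE11 controls for 34 of 45 proteasome genes (75.6%), for all 5 immunoproteasome genes, and for 65.3% of all genes tested. These levels carry no test, and differences between tables cannot be told apart from differences between lines.

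Counting could not treat every proteasome gene alike. In GENCODE release 29, exons of 23 of the 48 share bases with another gene, and no source used here gives the strand setting of the counter. The only genes that overlap PSMD11 and PSMF1 are not among those listed for Kyse150, so these overlaps need not all hold in that line. For PSMA1, PSMA2, PSMA6, PSMB10 and PSMD9, 43.8% to 81.0% of the principal transcript is overlapped, and each held 6 to 177 counts a library. PSMB8 and PSMB9 share 139 exon bases with each other and further bases with PSMB8-AS1, none of them in the principal transcripts. PSMD7 is overlapped over 50.4%. Some of the genes, among them PSME2 and PSMC1, have processed pseudogenes that can make a read align to more than 1 place, and such reads were not counted, so their levels are less certain. The part of these overlaps in the results was not tested beyond counting the genes without any overlap: among those 25, of which 22 were tested in Kyse150 and 23 in TE11, 0 were higher and 19 lower in Kyse150, and 16 were higher and 3 lower in TE11.

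Genes that work with the proteasome were read from lists. Of 17 partners, 3 were higher and 8 lower in Kyse150 shKDM2A, and 10 higher and 7 lower in the libraries labelled TE11 shKDM2A. The shares over all genes were 24.8% higher and 23.3% lower in Kyse150, and 35.9% and 42.2% in TE11. ADRM1, a ubiquitin receptor of the 19S cap, moved as most of the cap did, with 307.2 and 283.7 CPM in Kyse150 shKDM2A and 394.4 and 419.2 CPM in Kyse150 shNC (log2 -0.46, edgeR adjusted p = 3.01e-07), and 304.1 and 297.7 CPM in labelled TE11 shKDM2A against 146.3, 133.7 and 135.5 CPM in TE11 shNC (log2 1.12, edgeR adjusted p = 1.68e-20). POMP, which matures the core, gave -0.53 and 0.26 (edgeR adjusted p = 3.38e-06 and 0.000506). USP14, a deubiquitinase that docks on the cap, fell in both: 83.8 and 78.1 CPM in Kyse150 shKDM2A against 130.1 and 123.3 CPM in Kyse150 shNC (log2 -0.65, edgeR adjusted p = 1.37e-07), and 150.2 and 159.8 CPM in labelled TE11 shKDM2A against 433.2, 480.8 and 476.0 CPM in TE11 shNC (log2 -1.58, edgeR adjusted p = 1.71e-25).

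At the RNA level NFE2L1 itself did not follow the constitutive subunits, and its protein was not measured. It had 220.3 and 212.0 CPM in Kyse150 shKDM2A and 204.0 and 221.8 CPM in Kyse150 shNC, with overlap (log2 0.02, edgeR adjusted p = 0.80). Levels in TE11 were 195.2 and 190.3 CPM in the libraries labelled shKDM2A and 293.3, 286.0 and 286.2 CPM in shNC (log2 -0.58, edgeR adjusted p = 2.0e-11). Of the 10 genes of its pathway, 3 were higher and 3 lower in Kyse150, and 3 higher and 4 lower in TE11, shares near those over all genes (24.8% and 23.3%, and 35.9% and 42.2%). VCP, the ATPase that extracts NFE2L1 from the endoplasmic reticulum, fell in Kyse150 (log2 -0.46, edgeR adjusted p = 1.49e-07) and was not called in TE11 (0.05, 0.426). Its cofactors UFD1 and NPLOC4 rose in TE11 by 1.07 and 0.60 (edgeR adjusted p = 5.14e-16 and 6.04e-11). The ubiquitin ligase SYVN1 and the NFE2L1 partner MAFG rose in Kyse150 by 0.61 and 0.49 (edgeR adjusted p = 5.57e-06 and 4.68e-05), and MAFG fell in TE11 by 0.55 on the log2 scale (2.8e-07).

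Of the genes for ubiquitin and its activating enzymes, 3 of 5 tested fell and none rose in Kyse150, and 3 rose and 3 fell of 6 in TE11. Over all genes, 23.3% fell and 24.8% rose in Kyse150, and 35.9% rose and 42.2% fell in TE11. UBB, a polyubiquitin gene, held 3 and 2 counts in the libraries labelled TE11 shKDM2A and 6077, 5957 and 6167 in TE11 shNC (edgeR adjusted p = 2.14e-43). It held 0 counts in both Kyse150 shKDM2A libraries and 0 and 2 in Kyse150 shNC. UBB holds near-identical repeats that its pseudogenes share, which makes its counts uncertain. Near-absence of UBB counts was shared by the labelled TE11 knockdowns and all Kyse150 libraries. UBA1, the main activating enzyme, gave -0.20 and 0.65 (edgeR adjusted p = 0.00353 and 8.84e-14), the first lost without Kyse150 shKDM2A replicate 2 (0.0691), and UBA6 gave -0.49 and -0.21 (0.000439 and 0.0175). UBA6's groups overlapped in TE11, and its call there was lost in 5 alternatives, with adjusted p up to 0.139. The ubiquitin fusion RPS27A fell in both lines, at -0.37 and -0.50 (edgeR adjusted p = 6.09e-06 and 9.72e-11).

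Of the class I and interferon genes, 10 of 16 tested were called higher in Kyse150 shKDM2A, none lower, and 6 were not called, where 24.8% of all genes were higher and 23.3% lower. In the libraries labelled TE11 shKDM2A 14 of 16 were lower and 2 higher, against 42.2% and 35.9% of all genes. TAP1, which loads peptides made by the proteasome into the endoplasmic reticulum and faces PSMB9 across the sequences printed for both, had 58.9 and 50.9 CPM in Kyse150 shKDM2A and 21.0 and 21.1 CPM in Kyse150 shNC (log2 1.38, SE 0.12, edgeR adjusted p = 3.38e-10). Its TE11 levels were 16.8 and 18.4 CPM in the libraries labelled shKDM2A and 84.3, 76.8 and 76.3 CPM in shNC (log2 -2.17, SE 0.10, edgeR adjusted p = 1.14e-23). B2M, the class I light chain, and TAPBP, which holds the receptive class I molecule, gave 0.84 and 0.72 in Kyse150 (edgeR adjusted p = 2.26e-10 and 1.24e-06) and -2.42 and -2.36 in TE11 (2.19e-32 and 9.39e-28).

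ERAP2, which trims peptides after the proteasome, fell to 6.75 and 4.56 CPM in the libraries labelled TE11 shKDM2A, against 196.7, 218.7 and 215.1 CPM in TE11 shNC (log2 -5.22, edgeR adjusted p = 8.34e-36). In Kyse150 its value was 0.90 (edgeR adjusted p = 0.00798), lost with DESeq2 (0.103), without shKDM2A replicate 1 (0.0513) and without shNC replicate 2 (0.113). IFNGR1, a chain of the interferon gamma receptor, had 23.2 and 23.7 CPM in the libraries labelled TE11 shKDM2A and 226.6, 266.4 and 238.9 CPM in TE11 shNC (log2 -3.38, edgeR adjusted p = 6.87e-33), and was not called in Kyse150 (0.21, 0.228). The 2 genes of this list that rose in TE11 were TAP2 and JAK2, named after their values were seen.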

How the data were processed

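PolyA-selected RNA of 9 libraries, read as paired ends on a HiSeq instrument per the labels' protocols, was counted per gene by the submitters. The deposited values are whole-number counts, not normalized, in 1 table per line. Per the submitters' processing notes, bcl2fastq 2.19, HISAT2 2.1.0, HTSeq 0.9.1 and DESeq2 were used, with GRCh37.p13 and GRCh38.p13. Which build and annotation served which table, and the counting strand, is given by no source used here. The tables list 57820 (Kyse150) and 60683 (TE11) genes. Counts on no gene (42.3% to 44.5%) or aligned to more than 1 place (2.94% to 6.78%) were left out of library sizes.

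Low genes were removed with filterByExpr (at least 10 counts, total of at least 15). Libraries were scaled by TMM, and each line was tested with edgeR 4.0.16 in R 4.3.3 (robust quasi-likelihood, group only), with Benjamini-Hochberg adjustment over all genes at 0.05. The line contrast used genes in both tables. The procedure was also run on simulated counts in which few genes changed. Far more genes were called in these data, so that run does not give the error rate of these comparisons. Alternatives were DESeq2 1.42.0, other scalings and filters, a replicate block, a joint fit, leaving out each library and, for ratios, other pseudocounts. Members, lists and the genes given in full (the immunoproteasome and constitutive catalytic genes, the 2 largest called changes per role and line, the 2 largest line differences per direction, members called in neither line, and the 3 smallest p per related list) were chosen with earlier results of these data known. Replicates differed beyond counting noise (chi-square per degree of freedom 1.62 to 4.91). Some genes of the lists are not reported here.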

Additional observations from a re-analysis of the deposited data

Results flagged for a closer look

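The response of a gene in TE11 (libraries labelled shKDM2A over shNC) was set against its response in Kyse150 (shKDM2A over shNC). In a contrast from a single edgeR fit of 9 libraries, 25 of the proteasome genes given in full differed at adjusted p under 0.05. Those genes were chosen in part by their changes in these data and by this contrast, so the count is no evidence in itself. Of all 45 proteasome genes tested 38 were called. Of 15895 genes, 33.8% were called above 0 and 33.1% below. Values are the TE11 log2 response minus the Kyse150 one.

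For the immunoproteasome the difference was -5.63 for PSMB8, -7.31 for PSMB9, -3.42 for PSMB10, -2.30 for PSME1 and -1.23 for PSME2, so that all 5 lay below 0. For the subunits they replace it was 1.15 for PSMB5, 0.51 for PSMB6 and 0.77 for PSMB7. Among other core subunits it was -1.05 for PSMA3, 1.17 for PSMA5 and 0.36 for PSMB1.

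In the 19S cap it was 1.40 for PSMC1, 2.21 for PSMC3, 2.0 for PSMC5, 0.29 for PSMC6, 2.15 for PSMD12, 1.0 for PSMD1, 1.89 for PSMD13 and 1.51 for PSMD2. The regulators PSME3 and PSMF1 had 1.56 and 1.40. Among assembly factors it was 1.10 for PSMD10, 1.47 for PSMD5, 1.43 for PSMG2 and -1.12 for PSMG4. These differences rest on the TE11 labels, whose target gene was not lower, and the part of the labels in them was not tested.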

How the results depend on the processing

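Counts of called proteasome genes stayed within 1.5 times under every alternative that kept all of them. Leaving out a library gave 27 to 33 called in Kyse150 (3 to 4 higher, 24 to 30 lower), 37 to 41 in TE11 (27 to 30 higher, 10 to 11 lower) and 36 to 38 in the line contrast (29 to 30 above 0, 7 to 8 below). Counting only genes whose exons overlap no other gene, an alternative chosen after seeing the data, gave 19 (0 higher, 19 lower), 19 (16, 3) and 19 (18, 1), since fewer genes, and no immunoproteasome gene, are then counted.

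With the replicate number as a block the counts were 30, 38 and 36. Same-numbered libraries deviated from their group means at r = -0.179 in Kyse150 and -0.0043 and -0.0208 in TE11. These values gave no sign that the numbers pair the libraries. With so few libraries in a group they cannot exclude a pairing or a shared batch.

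The ratio differences without each library ranged from 1.57 to 2.15 (PSMB8 over PSMB5), 2.13 to 3.36 (PSMB9 over PSMB6) and -0.18 to 1.30 (PSMB10 over PSMB7) in Kyse150, the last turning negative without shNC replicate 2. In TE11 they ranged from -5.02 to -4.84, -5.28 to -5.00 and -3.85 to -3.62. A pseudocount of 5 moved PSMB9 over PSMB6 to -4.83 and PSMB10 over PSMB7 to -3.40 in TE11.

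Of 2747 values of proteasome and other named genes under alternatives, 2653 kept their call or their lack of one, 74 lost the call and 20 gained it. Of these values 0 turned round with a call, but some without a call changed sign. PSMB10 in Kyse150 was 0.34 with all libraries and -0.21 without shNC replicate 2. Over all genes in Kyse150, DESeq2 called 2156 higher and 2181 lower, against 3490 and 3281 with edgeR. Upper-quartile scaling moved the median log2 difference of all genes in the line contrast to -0.181, from -0.0629, with 29 of the 37 called proteasome genes above 0, against 30 of 38 with TMM. Low counts of PSMA1, PSMA2, PSMA6, PSMB10 and PSMD9 limit their precision.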
